A study of Mus musculus with 34 samples.

Results

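The protein kinase C (PKC) genes Prkca, Prkcb, Prkcd, Prkce, Prkch, Prkcq, Prkci and Prkcz were taken by symbol from RNA-seq of mice that lack or carry Hdac1 in the brain, 8 of the 23951 genes listed. They are not the whole PKC family. PKC enzymes are serine/threonine kinases that act downstream of receptors coupled to phospholipase C. The conventional enzymes (Prkca and Prkcb here) need calcium and diacylglycerol, the calcium-independent ones (Prkcd, Prkce, Prkch and Prkcq) need diacylglycerol alone, and the atypical ones (Prkci and Prkcz) need neither and are steered by scaffold proteins such as Par6. In neurons PKC adjusts transmitter release and synaptic plasticity, and in astrocytes atypical PKC is known for its part in cell polarity.

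Hippocampal RNA came from 4 control mice (Hdac1f/f), 5 Hdac1 cKO mice (the same floxed allele plus Nestin-Cre, which removes Hdac1 from neurons and astrocytes), 6 5XFAD mice (floxed Hdac1 intact, plus human transgenes of familial Alzheimer disease under the neuronal Thy1 promoter) and 5 mice that carry both (Hdac1 cKO; 5XFAD, called compound mice here). The labels give ages of 13 to 14 months for the control and Hdac1 cKO groups and 13 months for the others. Nuclei positive for GFAP, a marker of astrocytes, had been sorted from cortical tissue, and 3 control and 4 Hdac1 cKO libraries of them were analysed. Their labels give no age, and the supplement puts these mice at 13 months. All groups carry the floxed Hdac1 allele. Control 2 of the GFAP+ nuclei and the 6 samples of ChIP-seq were not used here. The p-values below measure the spread between these libraries.

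The libraries differed in depth by a factor that can be read from the smallest steps between FPKM values (fragments per kilobase of transcript, scaled to the mapped total), from 0.754 to 2.35 relative to control 1 in the hippocampus and from 0.869 to 1.26 relative to GFAP+ control 1 in the nuclei. Hdac1 lay between 2.36 and 3.03 FPKM in Hdac1 cKO hippocampus against 5.91 to 10.7 FPKM in control, and between 1.15 and 2.52 FPKM in compound mice against 6.10 to 9.64 FPKM in 5XFAD mice, without overlap. In the GFAP+ nuclei it was 8.95 ± 2.40 (SD, n = 4) against 15.5 ± 6.25 FPKM (n = 3), and these ranges overlapped. Thy1, whose promoter drives the 5XFAD transgenes, lay between 1563 and 2357 FPKM in the libraries with the transgenes and between 303 and 388 FPKM in every other hippocampal library. Gfap, used for the sort, was 72.6 ± 18.2 FPKM in GFAP+ control (n = 3) and 83.1 ± 7.84 FPKM in GFAP+ Hdac1 cKO nuclei (n = 4), against 25.1 ± 1.40 FPKM in control hippocampus. The summed astrocyte markers (7 genes) lay between 2650 and 3258 FPKM in the GFAP+ nuclei and between 932 and 1274 FPKM in the hippocampus, and the summed neuron markers (7 genes) between 186 and 267 FPKM against 1412 to 1919 FPKM. Oligodendrocyte markers (7 genes) were not absent from the sorted nuclei, with sums of 432 to 1188 FPKM.

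The study looked at guanine-rich motifs and oxidised guanine in promoters of mice without Hdac1, so the DNA just upstream of the PKC genes is shown. In aged Hdac1 cKO mice the study reported more oxidised guanine at the Prkcd promoter by ChIP-qPCR. It counted Prkcd among the genes lower in those mice and named several PKC isoforms as lower, whereas Prkcd was not called in the main fit below. For each gene the 250 bases before the 5′-most start of its consensus coding transcripts were read from mm9 with the GENCODE M1 annotation. All 8 windows hold the GC-box core GGGCGG on either strand, which 43.7% of the 19470 promoters of listed genes hold. None of the 8 holds the longer box GGGGCGGGG, which contains that core and is found in 14.7% of promoters. Guanine made up between 28.0% (Prkci) and 41.2% (Prkch) of the 8 windows, beside a median of 26.8% over all promoters. The windows of Prkcb, Prkch and Prkcq overlap exons of other transcripts of the same genes. Printed with the core in capitals and 5′ to 3′ on the strand of the gene are the windows of Prkcd, whose level varied most widely between hippocampal libraries among the genes above 5 FPKM, Prkce, whose mean was 1.17-fold that of control in Hdac1 cKO hippocampus (not called, adjusted p = 0.304, limma), Prkci, which was lower in Hdac1 cKO GFAP+ nuclei, and Prkcz, the leading gene of those nuclei.
Prkcd, chr14:31439397-31439646, minus strand: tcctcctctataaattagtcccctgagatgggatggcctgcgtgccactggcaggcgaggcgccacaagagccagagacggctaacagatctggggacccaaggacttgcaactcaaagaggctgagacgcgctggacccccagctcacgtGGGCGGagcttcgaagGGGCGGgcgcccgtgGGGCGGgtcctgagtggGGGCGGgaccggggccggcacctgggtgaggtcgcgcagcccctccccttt
Prkce, chr17:86566875-86567124, plus strand: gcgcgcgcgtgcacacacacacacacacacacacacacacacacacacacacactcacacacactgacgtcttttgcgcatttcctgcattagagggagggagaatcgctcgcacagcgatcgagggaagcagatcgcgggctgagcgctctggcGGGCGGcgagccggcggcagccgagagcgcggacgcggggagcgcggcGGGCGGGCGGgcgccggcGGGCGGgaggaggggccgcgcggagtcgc
Prkci, chr3:30894419-30894668, plus strand: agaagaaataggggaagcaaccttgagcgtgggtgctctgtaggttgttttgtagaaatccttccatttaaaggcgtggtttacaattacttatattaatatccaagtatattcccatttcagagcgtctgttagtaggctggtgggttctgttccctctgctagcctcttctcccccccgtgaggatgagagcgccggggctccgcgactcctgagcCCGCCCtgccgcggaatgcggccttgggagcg
Prkcz, chr4:154735471-154735720, minus strand: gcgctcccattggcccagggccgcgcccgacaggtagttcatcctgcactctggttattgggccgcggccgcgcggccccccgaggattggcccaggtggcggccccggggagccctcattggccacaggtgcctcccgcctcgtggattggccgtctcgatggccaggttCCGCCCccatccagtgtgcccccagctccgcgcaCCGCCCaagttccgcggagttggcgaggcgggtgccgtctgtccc
The Prkcd and Prkce windows each hold 4 copies of the core, all on the strand of the gene, the Prkcz window holds 2, both on the other strand, and the Prkci window holds 1. A match is a run of letters and not a measured binding site.

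The 8 genes spanned a wide range of levels in the hippocampus, and their order was much the same in all 4 groups. In control hippocampus Prkcb led at 107 ± 5.78 FPKM (SD, n = 4), followed by Prkce at 55.4 ± 3.12, Prkcz at 25.4 ± 0.822, Prkca at 16.8 ± 1.51, Prkcd at 13.8 ± 8.74, Prkcq at 3.42 ± 1.79, Prkci at 3.33 ± 0.598 and Prkch at 0.611 ± 0.549 FPKM. By FPKM the order of the first 4 held in every library of all 4 groups, with no overlap between neighbours within a group. Prkca and Prkcd did not differ beyond their spread in control (Prkca was higher in 2 of 4 libraries) or 5XFAD hippocampus (5 of 6), and Prkci and Prkcq overlapped in all 4 groups. Prkch was the lowest of the 8 by group mean in all 4 groups and rested on few fragments. Where values are low they are whole multiples of 1 smallest step, taken here as 1 fragment. Prkch then corresponds to 2, 10, 4 and 21 fragments in control libraries 1 to 4, and to between 5 and 48 fragments in the other hippocampal libraries, each value within 0.000245 of a whole number.

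As shares of the summed FPKM of the 8 genes, Prkcb made up 47.5% ± 3.75 of control hippocampus (SD, n = 4), 50.3% ± 1.42 of Hdac1 cKO (n = 5), 46.6% ± 4.45 of 5XFAD (n = 6) and 48.3% ± 2.72 of compound hippocampus (n = 5). Prkce followed at between 24.6% and 25.7% in the 4 group means, Prkcz at between 11.3% and 12.2%, and Prkca at between 7.15% and 7.51%. The conventional genes together held between 54.1% and 57.4% of the sum by group mean, the calcium-independent genes between 29.5% and 32.6%, and the atypical genes between 12.7% and 13.8%. Within the control group alone the SD of these shares was 3.58, 3.72 and 0.411 percentage points. The order of Prkcb and Prkce by fragments, and that of Prkcz and Prkca, is not established, since FPKM divides by a length. Multiplied by the longest coding transcript of GENCODE M1, which is not the length the authors divided by, Prkce took 35.6% and Prkcb 32.1% of control hippocampus, and Prkce led in all 4 groups. Prkca then took 14.5% and Prkcz 10.7% of control hippocampus, and Prkca lay above Prkcz in all 4 groups.

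**Figure D1:**
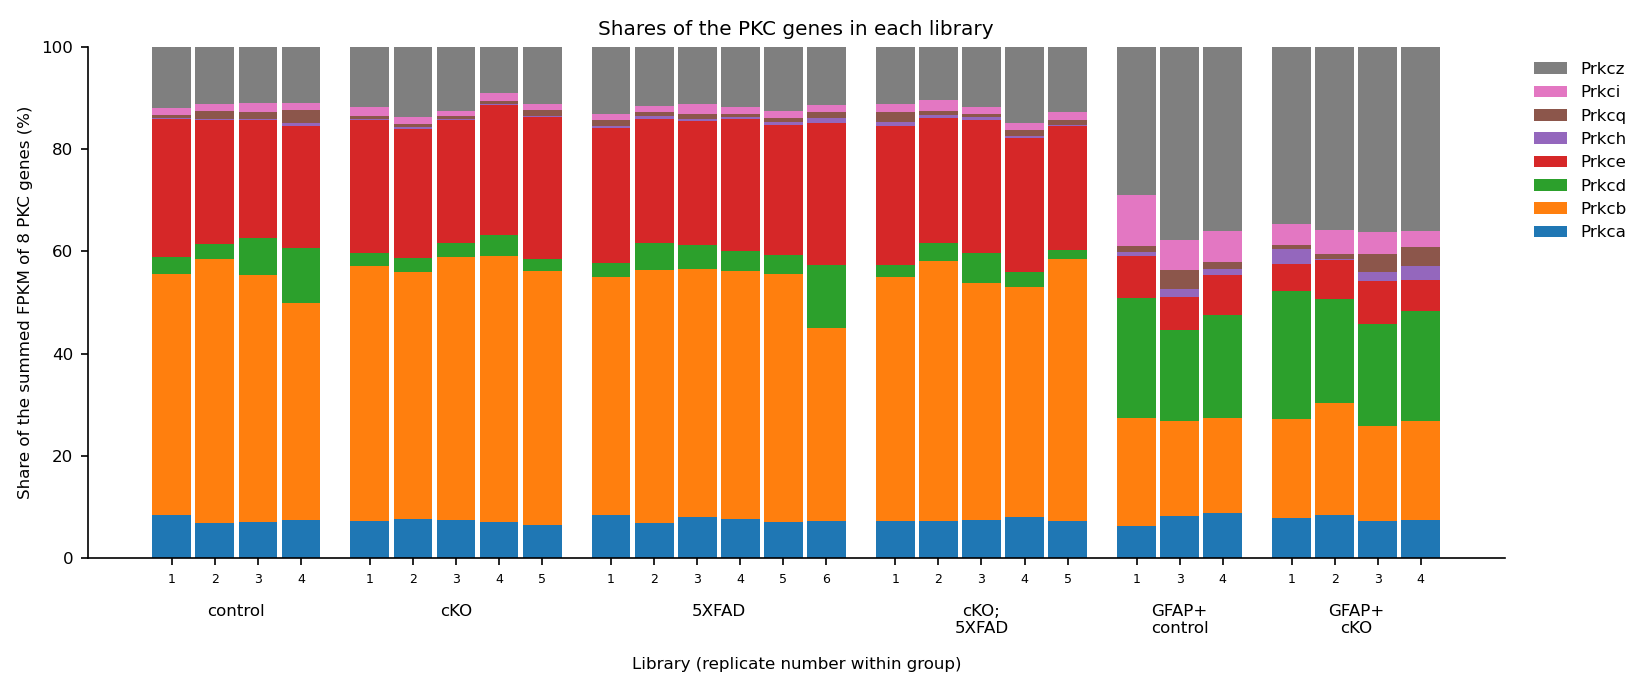
Share of each PKC gene in the summed FPKM of the 8 genes (%), 1 bar per library, ordered by group and replicate number. In the 20 hippocampal bars Prkcb takes between 37.8% and 51.9%, and in the 7 bars of GFAP+ nuclei Prkcz takes between 28.9% and 37.8%.

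The GFAP+ nuclei had another mix. Prkcz, whose gene also yields the brain form PKMζ from an internal promoter that gene-level values do not separate, led with 24.9, 40.4 and 36.9 FPKM in control 1, 3 and 4 and 29.6, 28.9, 39.0 and 37.3 FPKM in Hdac1 cKO 1 to 4. It held 34.3% ± 4.73 of the summed FPKM in GFAP+ control (n = 3) and 35.6% ± 0.755 in GFAP+ Hdac1 cKO nuclei (n = 4), and it led in both groups also after multiplying by length (33.9% in control). By FPKM, Prkcd and Prkcb came next and were not told apart, at 19.9 ± 0.838 and 19.1 ± 0.825 FPKM in control nuclei, with Prkcd higher in 2 of 3 control and 3 of 4 Hdac1 cKO libraries. After multiplying by length, Prkca took 15.8% of control nuclei, above Prkcd at 14.2% and Prkcb at 13.8%. Of the summed FPKM, Prkcd held 21.2% ± 2.40 over the 7 nuclear libraries, against 4.40% ± 2.78 over the 20 hippocampal ones. Prkce held 7.11% ± 1.203 against 25.4% ± 1.35. The atypical genes held 41.6% ± 2.38 in GFAP+ control nuclei. Tissue, cell type, nuclear RNA and library kit all differ between the sets, and each set was normalized on its own, so these levels stand side by side without a test and the reasons for their difference cannot be told apart.

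**Figure D2:**
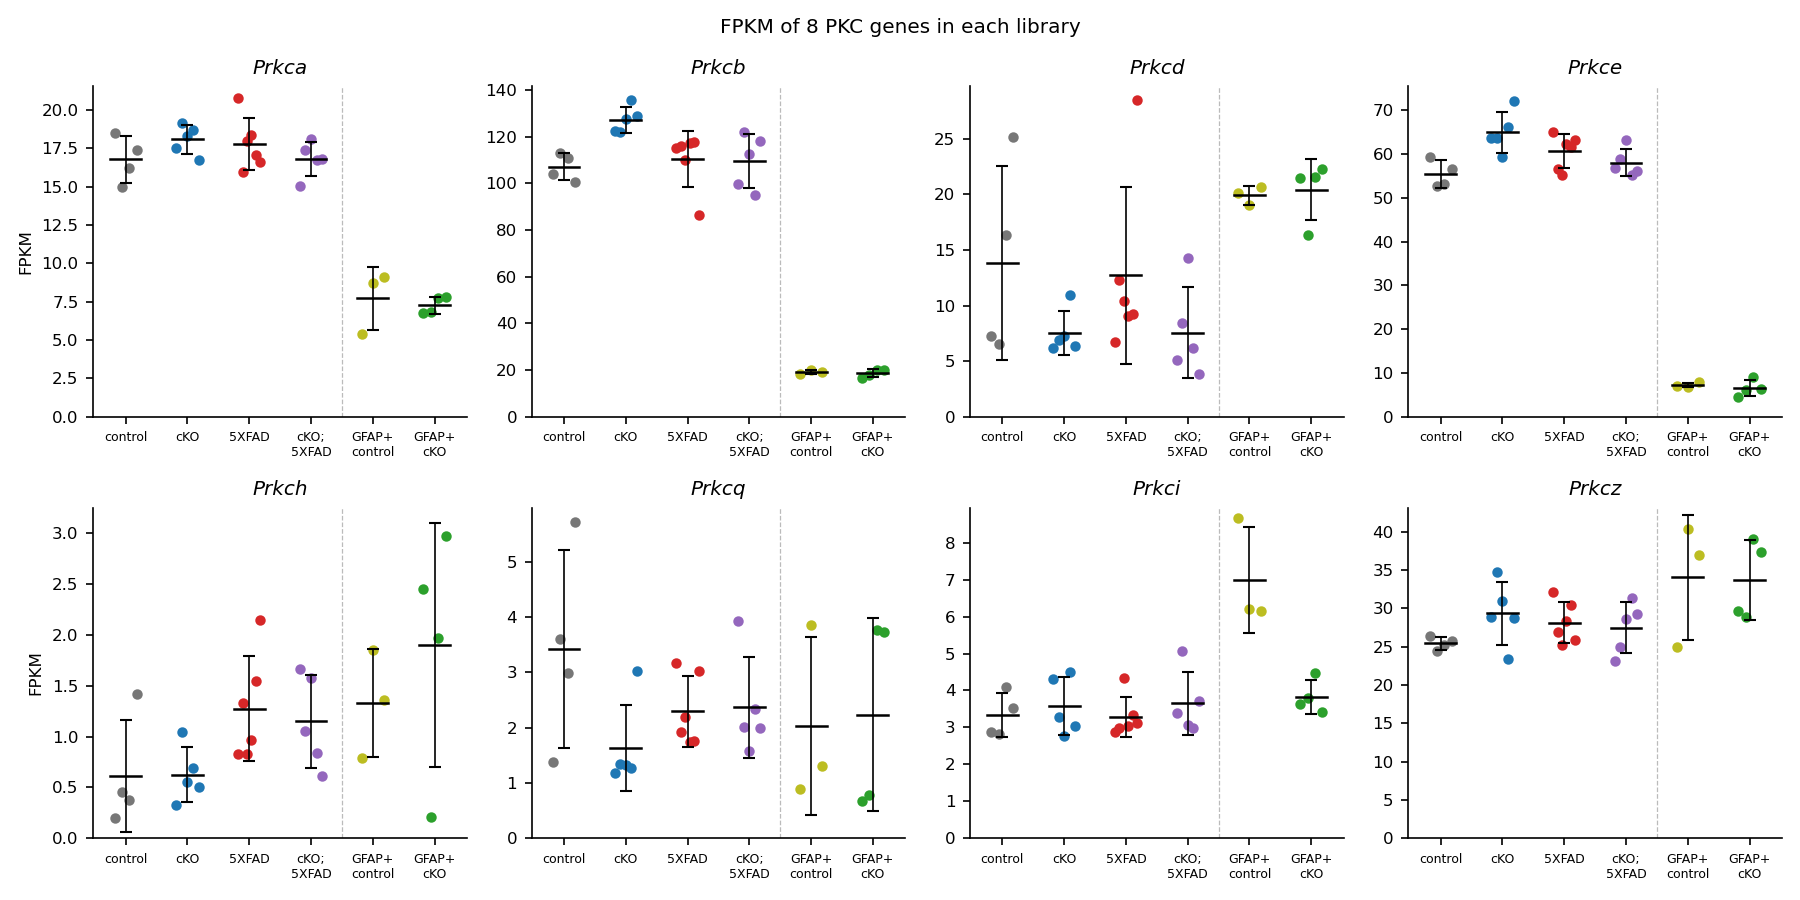
FPKM of each PKC gene (linear axes from 0), 1 point per library, with the group mean (line) and SD (bar). The dashed line parts the hippocampal groups from the GFAP+ nuclei, which were normalized apart. Prkcb and Prkce lie far above their nuclear levels in every hippocampal library, and Prkcb in the 5 Hdac1 cKO libraries lies above all 4 control libraries.

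Hdac1 loss alone was compared in 5 Hdac1 cKO and 4 control hippocampi. Prkcq was lower, and Prkcb and Prkce were 1.19-fold and 1.17-fold higher by their means, below the fold change that a call needs. Of the 8 genes, 1 (Prkcq) was called, which took a 1.5-fold difference or more together with an unadjusted p below 0.05, beside 3.36% of the 14265 genes tested, and 0 reached an adjusted p under 0.05 (limma), beside 0.154% of all genes. At an unadjusted p under 0.05 alone there were 3 PKC genes (Prkcb, Prkce and Prkcq), beside 11.7% of all genes. Across the 8 genes 6 fold changes were positive and the median log2 fold change was 0.09, beside 0.00 over all genes tested. That median was 0.04 without control 2 and 0.16 without control 4.

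Prkcb, the conventional enzyme that leads in forebrain neurons, measured 104, 113, 111 and 100.5 FPKM in control 1 to 4 and 122.3, 122.1, 127.5, 136 and 129 FPKM in Hdac1 cKO 1 to 5. The groups did not overlap. The Hdac1 cKO mean was 1.19-fold higher (log2 fold change 0.25 ± 0.07, SE), with an exact two-sided permutation p of 0.0159, the smallest that 5 against 4 libraries can give, and an adjusted p of 0.205 over all genes (limma). Leaving out each library in turn kept the log2 fold change between 0.22 and 0.27. The fold change stays under 1.5, so the gene does not count as called.

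Prkce, a calcium-independent enzyme found at presynaptic terminals, measured 59.3, 52.6, 53.2 and 56.5 FPKM in control 1 to 4 and 63.6, 63.7, 59.3, 66.1 and 72.1 FPKM in Hdac1 cKO 1 to 5. Its groups touched at 1 library on each side. The log2 fold change was 0.22 ± 0.08 (SE), with an exact permutation p of 0.0317 and an adjusted p of 0.304 (limma). The summed FPKM of the 8 genes was 253 ± 7.24 in Hdac1 cKO and 226 ± 8.27 in control hippocampus, and the summed neuron markers were 1784 ± 121 against 1718 ± 109 FPKM, with overlapping ranges. In tissue of mixed cells, more transcript per cell and more cells of a type cannot be told apart.

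Prkcq, the enzyme best known from T cell receptor signalling, measured 1.38, 3.60, 2.99 and 5.72 FPKM in control 1 to 4 and 1.18, 1.35, 1.32, 1.27 and 3.02 FPKM in Hdac1 cKO 1 to 5. Control 1 sat among the Hdac1 cKO libraries, and Hdac1 cKO 5 sat among the other controls. These values rest on 14 to 85 fragments in control and 18 to 72 in Hdac1 cKO libraries. The Hdac1 cKO mean was 47.6% of control, with a log2 fold change of -0.70 ± 0.28 (SE) with an unadjusted p of 0.0282, an adjusted p of 0.348 (limma) and an exact permutation p of 0.0635. The call was lost without control 2, without control 4 and without any 1 of Hdac1 cKO 1 to 4, with unadjusted p-values between 0.0542 and 0.108 (limma). Without control 4 the log2 fold change was -0.46, and in the other fits that lost the call it lay between -0.67 and -0.64. Over all single libraries left out it ran from -0.96 to -0.46.

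In the control, Hdac1 cKO and compound groups the level of Prkcq moved with markers of choroid plexus, the secretory epithelium that borders the hippocampus. Ttr, its most abundant transcript, stood at 576 FPKM in control 1 and between 12903 and 20146 FPKM in control 2 to 4, and at 1608 FPKM in Hdac1 cKO 5 against 56.5 to 106 FPKM in Hdac1 cKO 1 to 4. Among control 2 to 4 the order differed, since control 4 had the lowest Ttr (12903 FPKM) and the highest Prkcq (5.72 FPKM). In compound mice Ttr was 13910 FPKM in library 1, which has the highest Prkcq of its group (3.93 FPKM), and between 58.9 and 265 FPKM in the other libraries. In 5XFAD mice Ttr ran from 53.8 to 7892 FPKM and Prkcq from 1.73 to 3.17 FPKM. The summed 9 choroid plexus markers ranged from 592 to 20503 FPKM in control and from 59.8 to 1635 FPKM in Hdac1 cKO libraries, and all 9 were called lower in Hdac1 cKO mice. With a term for Ttr above 1000 FPKM in the fit, an alternative chosen after the data were seen, the log2 fold change of Prkcq was -0.18 (adjusted p = 0.831, limma) and no PKC gene was called, while that of Prkcb was 0.27 (adjusted p = 0.402, limma). For 5XFAD against control the same term left Prkcq at -0.30 (adjusted p = 0.623, limma), beside -0.35 in the main fit. With Hdac1 cKO mice the term marks control 2 to 4 and Hdac1 cKO 5, and with compound mice control 2 to 4 and compound 1. It thus nearly follows genotype in these comparisons with control, and choroid plexus RNA and genotype cannot be told apart by it. The part of choroid plexus RNA in the Prkcq values was not tested. Of the 6 T cell markers, 3 were listed at 0 in all control libraries and 2 in all Hdac1 cKO libraries, and their sum was at most 6.11 FPKM in any hippocampal library.

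Prkcd, a calcium-independent enzyme linked to apoptosis and abundant in thalamic relay neurons, was the most uneven of the genes above 5 FPKM, with a coefficient of variation of 63.2% in control hippocampus against 5.40% for Prkcb. It measured 7.28, 6.59, 16.4 and 25.1 FPKM in control 1 to 4, and 6.18, 6.91, 7.26, 10.99 and 6.39 FPKM in Hdac1 cKO 1 to 5. The groups overlapped, and the log2 fold change of -0.63 ± 0.36 (SE) did not pass the test (adjusted p = 0.544, limma). It passed the call thresholds without control 1 (-0.85, adjusted p = 0.386, limma) or without control 2 (-0.89, adjusted p = 0.363, limma), the lowest controls, and without control 4 it was -0.29 (adjusted p = 0.767, limma). The 2 highest hippocampal libraries, control 4 and 5XFAD 6, also had the highest thalamic markers. Tcf7l2 was 16.2 FPKM in control 4 and 20.3 FPKM in 5XFAD 6, against 2.47 to 6.44 FPKM in the other hippocampal libraries, and the summed 8 thalamic markers were 79.4 and 120.3 FPKM against 15.4 to 34.1 FPKM. The other libraries high in Prkcd differed in these markers. Hdac1 cKO 4, the highest of its group, had the lowest thalamic sum of all (15.4 FPKM), compound 3, the highest of its group, had the lowest sum of its group (20.3 FPKM), while control 3 (16.4 FPKM of Prkcd) had the next highest sum after control 4 and 5XFAD 6 (34.1 FPKM), with Zic1, a gene of that list, at 9.96 FPKM and the lowest Tcf7l2 of the controls (3.44 FPKM). In the GFAP+ nuclei, sorted from cortex, Tcf7l2 lay between 41.0 and 58.8 FPKM and the summed thalamic markers between 73.9 and 112 FPKM. The list is therefore not particular to thalamic neurons. The part of thalamic RNA in the Prkcd values was not tested.

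The remaining genes did not pass the test. Prkcz was 29.3 ± 4.13 against 25.4 ± 0.822 FPKM (log2 fold change 0.19 ± 0.11, exact permutation p = 0.0794), and 4 of 5 Hdac1 cKO libraries lay above all controls. Prkca was 18.1 ± 0.954 against 16.8 ± 1.51 FPKM (exact permutation p = 0.175), Prkci 3.58 ± 0.782 against 3.33 ± 0.598 FPKM (p = 0.619) and Prkch 0.625 ± 0.270 against 0.611 ± 0.549 FPKM (p = 0.968, both exact permutation tests).

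**Figure D3:**
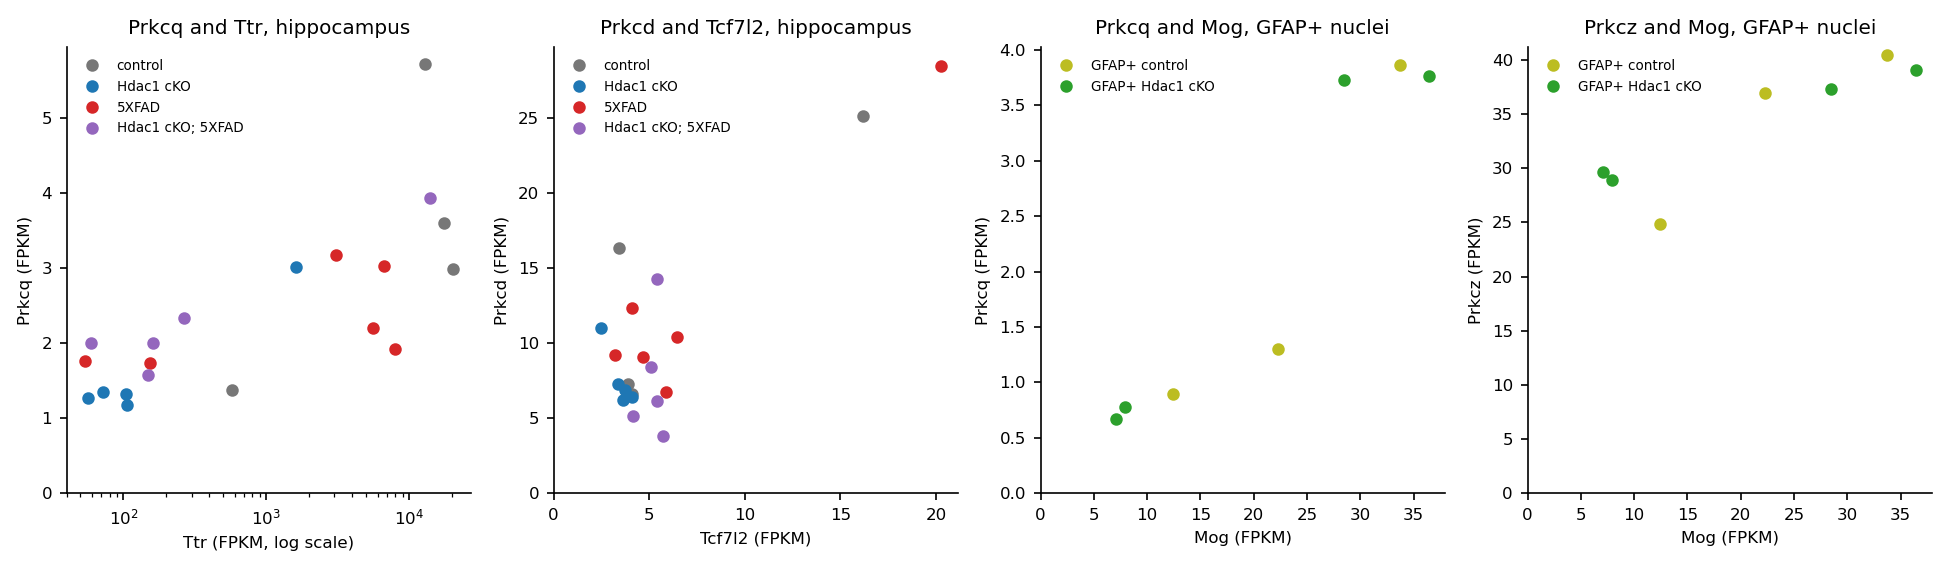
FPKM of a PKC gene against a marker of another cell type or region, 1 point per library: Prkcq against Ttr (log axis) and Prkcd against Tcf7l2 in hippocampus, and Prkcq and Prkcz against Mog in GFAP+ nuclei. Control 4 and 5XFAD 6, at 16.2 and 20.3 FPKM of Tcf7l2, hold the highest Prkcd values, and the 3 nuclear libraries with Mog of 28.5 FPKM or more have Prkcq of 3.72 FPKM or more.

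The 5XFAD transgenes were compared with control in 6 against 4 hippocampi. No PKC gene was called, beside 2.95% of the 14402 genes tested, and 0 reached an adjusted p under 0.05 (limma), beside 0.708% of genes. At an unadjusted p under 0.05 there was 1 (Prkch), beside 10.7% of all genes. Prkch, a calcium-independent enzyme of epithelia and blood cells, measured 0.198, 0.452, 0.375 and 1.42 FPKM in control 1 to 4 and had a lowest, median and highest value of 0.824, 1.15 and 2.15 FPKM in 5XFAD mice. All 6 5XFAD libraries lay above control 1 to 3, and control 4 lay among them. The log2 fold change of log2(FPKM + 1) was 0.52 ± 0.23 (SE, unadjusted p = 0.0391, adjusted p = 0.434, limma), which the pseudocount keeps under 1.5-fold although the mean was 2.09 times that of control. The exact permutation p was 0.0952. Prkch was called without control 4 (0.74, adjusted p = 0.280, limma) and with a pseudocount of 0.1 (1.15, adjusted p = 0.403, limma).

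Among the other isoforms, 5XFAD mice had a Prkce lowest, median and highest value of 55.1, 62.0 and 65.0 FPKM against 52.6 to 59.3 FPKM in control (log2 fold change 0.13 ± 0.08, exact permutation p = 0.0762). Prkcz was 28.1 ± 2.72 against 25.4 ± 0.822 FPKM (0.14 ± 0.09, exact permutation p = 0.0667), and Prkcq 2.30 ± 0.642 against 3.42 ± 1.79 FPKM (-0.35 ± 0.25, exact permutation p = 0.229). Prkcq passed the call thresholds once control 1 was left out (-0.61, adjusted p = 0.317, limma), and without control 4 it was -0.12 (adjusted p = 0.919, limma). Prkcb was 110.4 ± 12.1 against 107 ± 5.78 FPKM (exact permutation p = 0.629), with a lowest, median and highest value of 86.4, 115 and 118 FPKM in 5XFAD mice, the lowest being library 6 with the thalamic markers. Prkcd was 12.7 ± 7.94 FPKM and Prkci 3.29 ± 0.540 FPKM, and both ranges overlapped with those of control.

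The compound mice were set against all 3 other groups. Against control no PKC gene was called, beside 4.24% of the 14348 genes tested, and 0 reached an adjusted p under 0.05, beside 0.662%. Prkch was 1.66, 1.05, 1.58, 0.840 and 0.609 FPKM in compound 1 to 5, a log2 fold change of 0.44 ± 0.25 that did not pass (exact permutation p = 0.143), and control 4 lay among these libraries. Microglia markers were higher in both groups with the transgenes, with 6 of 8 called against control in each, and their sums were 233 ± 27.1 FPKM in control, 506 ± 52.2 in 5XFAD and 645 ± 193 in compound mice. Their part in the Prkch values was not tested. It was called without control 4 (0.66, adjusted p = 0.426, limma) and with the term for Ttr (0.70, adjusted p = 0.486, limma). Prkcd was 5.13, 8.42, 14.2, 6.18 and 3.82 FPKM, a log2 fold change of -0.72 ± 0.44 (exact permutation p = 0.159), called, of the alternatives tried, only without compound 3 (-0.96, adjusted p = 0.421, limma), while without control 4 it was -0.38 (adjusted p = 0.844, limma). Prkcq was 2.37 ± 0.915 against 3.42 ± 1.79 FPKM (-0.33 ± 0.28, exact permutation p = 0.286). Of the alternatives tried it was called only without control 1 (-0.60, adjusted p = 0.413, limma), was -0.10 without control 4 (adjusted p = 0.951, limma) and turned to 0.16 with the term for Ttr (adjusted p = 0.905, limma). The 5XFAD and compound comparisons share the 4 control libraries, so their values are not independent.

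Against 5XFAD mice, which tests Hdac1 loss on the 5XFAD background, no PKC gene was called, beside 1.28% of the 14326 genes tested, and 0 reached an adjusted p under 0.05, beside 0.00698% (1 gene). The largest difference was that of Prkcd, at 7.56 ± 4.10 (n = 5) against 12.7 ± 7.94 FPKM (n = 6), a log2 fold change of -0.65 ± 0.35 with an exact permutation p of 0.190. It passed the call thresholds without compound 3 (-0.89, adjusted p = 0.718, limma) and was -0.40 without 5XFAD 6 (adjusted p = 0.785, limma). Prkcb was 109.5 ± 11.7 against 110.4 ± 12.1 FPKM (exact permutation p = 0.883), and the other 6 genes had exact permutation p-values between 0.268 and 0.883.

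Against Hdac1 cKO mice, no PKC gene was called, beside 3.55% of the 14195 genes tested, and 0 reached an adjusted p under 0.05 (limma), beside 1.49%. Prkcb was lower in every compound library, at 99.7, 122, 113, 95.1 and 118 FPKM, than in any Hdac1 cKO library, although the highest compound library (122.03 FPKM) nearly met the lowest Hdac1 cKO one (122.1 FPKM). The log2 fold change was -0.22 ± 0.08 (SE), with an exact permutation p of 0.00794, the smallest that 5 against 5 can give, and an adjusted p of 0.346 (limma). Prkce was 58.0 ± 3.15 against 65.0 ± 4.70 FPKM (-0.16 ± 0.08, exact permutation p = 0.0159, adjusted p = 0.525 in limma), with an overlap of 1 library. Prkch was 1.15 ± 0.459 against 0.625 ± 0.270 FPKM (0.39 ± 0.19, exact permutation p = 0.0635) and Prkcq 2.37 ± 0.915 against 1.63 ± 0.780 FPKM (0.36 ± 0.22, exact permutation p = 0.222). In this comparison 6 of 8 microglia, 2 of 7 astrocyte, 1 of 7 oligodendrocyte and 1 of 2 tested T cell markers were called higher. Their part in the PKC values was not tested.

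Whether Hdac1 loss acts differently with and without 5XFAD was tested by the interaction term over the 20 hippocampal libraries. Of the 8 genes 1 (Prkcq) was called, beside 4.07% of the 14389 genes tested, and 0 reached an adjusted p under 0.05 (limma), beside 0% (0 genes, with 1290 at an unadjusted p under 0.05). The interaction was 0.71 ± 0.34 for Prkcq (unadjusted p = 0.0497, adjusted p = 0.555), -0.29 ± 0.10 for Prkce (unadjusted p = 0.0119, adjusted p = 0.430) and -0.26 ± 0.13 for Prkcb (unadjusted p = 0.0527, adjusted p = 0.563) in limma. Prkce was 58.0 ± 3.15 in compound against 60.6 ± 3.94 FPKM in 5XFAD mice, and with each library left out the unadjusted p of its interaction stayed at 0.0288 or less (limma). With 1 library left out, the interaction call of Prkcq remained without control 1, Hdac1 cKO 5, 5XFAD 1, 5XFAD 6 or compound 3 and was lost without any other, with unadjusted p-values between 0.00505 and 0.158 over all libraries left out. With the term for Ttr, which ended the call of Prkcq in Hdac1 cKO mice, the interaction was 0.65 and stayed called (adjusted p = 0.372, limma). Prkca (-0.18 ± 0.12) and Prkcz (-0.22 ± 0.15) had negative terms that did not pass.

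**Figure D4:**
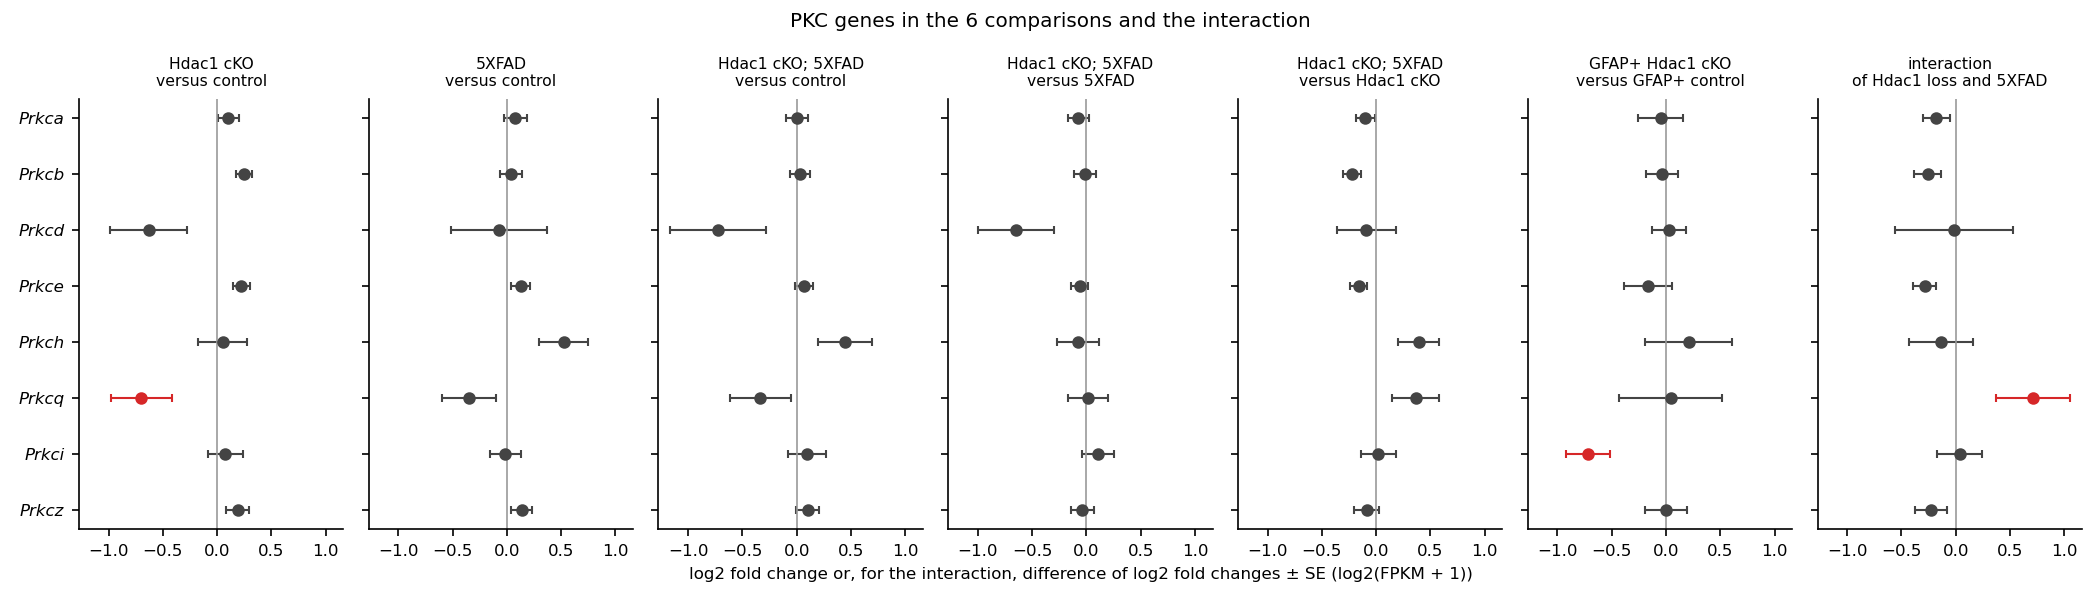
log2 fold change of each PKC gene on the log2(FPKM + 1) scale, with its standard error, in the 6 comparisons and as the interaction term. Red points were called (at least 1.5-fold, unadjusted p under 0.05), and none reached an adjusted p under 0.05. The 3 red points are Prkcq at -0.70 (Hdac1 cKO), Prkci at -0.72 (GFAP+ nuclei) and Prkcq at 0.71 (interaction).

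In GFAP+ nuclei, 4 Hdac1 cKO libraries were compared with 3 controls. Of the 8 genes 1 (Prkci) was called, beside 2.58% of the 15070 genes tested, and 0 reached an adjusted p under 0.05 (limma), beside 0.0133%. At an unadjusted p under 0.05 there was 1 (Prkci), beside 4.70% of all genes. All genes called numbered 389, beside 376 false calls for the nuclei in the simulated data described below. Prkci, the atypical enzyme that works with Par3 and Par6, measured 8.66, 6.19 and 6.14 FPKM in control 1, 3 and 4 and 3.64, 3.81, 4.47 and 3.41 FPKM in Hdac1 cKO 1 to 4, resting on 187 to 303 and 128 to 197 fragments. The groups did not overlap. The Hdac1 cKO mean was 54.8% of control, a log2 fold change of -0.72 ± 0.20 (SE, unadjusted p = 0.005, adjusted p = 0.984, limma), and the exact permutation p was 0.0571, the smallest that 4 against 3 can give. Without GFAP+ control 1 the log2 fold change was -0.57 (adjusted p = 0.980, limma) and the call was lost. Hdac1 cKO hippocampus did not share the difference, with Prkci at 3.58 ± 0.782 against 3.33 ± 0.598 FPKM. The difference between the sets was not tested.

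The other atypical gene, Prkcz, was 33.7 ± 5.21 against 34.1 ± 8.13 FPKM (exact permutation p = 0.971), Prkcd 20.4 ± 2.72 against 19.9 ± 0.838 FPKM (p = 0.800) and Prkcb 18.6 ± 1.74 against 19.1 ± 0.825 FPKM (p = 0.743, exact permutation tests). Prkca, Prkce, Prkch and Prkcq had exact permutation p-values between 0.457 and 0.857. Prkcq was split within both groups, at 0.900, 3.86 and 1.31 FPKM in control 1, 3 and 4 and 0.672, 0.774, 3.76 and 3.72 FPKM in Hdac1 cKO 1 to 4. The oligodendrocyte marker Mog was also highest in the 3 libraries with the most Prkcq, at 12.5, 33.8 and 22.3 FPKM and 7.10, 7.93, 36.5 and 28.5 FPKM. The 4 libraries with Mog above 20 FPKM held the 4 highest Prkcz values. The summed oligodendrocyte markers were 614, 1188 and 810.2 FPKM in control and 432, 540.2, 1080 and 1065 FPKM in Hdac1 cKO nuclei. The summed 8 microglia markers were also highest in the 3 libraries with the most Prkcq. They were 65.6, 125.3 and 96.6 FPKM in control and 47.7, 47.8, 130.8 and 119.7 FPKM in Hdac1 cKO nuclei. The part of oligodendrocyte and microglia RNA in these values was not tested. Among the other marker lists, 2 of 7 tested choroid plexus markers and 1 of 8 thalamic markers were called higher in Hdac1 cKO nuclei and 1 of 6 endothelial markers lower. The sums were 199 ± 64.7 against 66.9 ± 77.2 FPKM for choroid plexus, 101.3 ± 10.9 against 85.8 ± 13.0 FPKM for thalamic and 64.9 ± 14.8 against 82.7 ± 18.4 FPKM for endothelial markers, and their part in the Prkci difference was not tested. With a term for Mog above 20 FPKM, added after the data were seen, Prkci kept -0.74 (adjusted p = 0.979, limma).

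Among 11234 genes averaging 2 FPKM or more, the genes most like 7 of the PKC genes over the 20 hippocampal libraries (Spearman rho, n = 20, libraries of 4 genotypes that share cell makeup and depth) were as follows. Prkcb was most like Itpka (0.85), which encodes a kinase of dendritic spines, Cecr6 (0.85) and Camkk2 (0.84), a calcium/calmodulin-dependent kinase kinase. Prkce was most like Cplx2 (0.74), a regulator of vesicle fusion, Synj1 (0.72), which acts in synaptic vesicle recycling, and Nrcam (0.71), a neuronal adhesion molecule. Prkcq was most like Kcnj13 (0.82), a potassium channel gene of the choroid plexus marker list, Rbm47 (0.81) and Elovl7 (0.81). Prkch was most like Anxa2 (0.76), Oat (0.75) and Tnfrsf1a (0.72). The best matches were lower for Prkcd (Nt5dc2 0.67, Parvb 0.67 and Mns1 0.67), and for Prkca (Orc4 0.77, Gal3st3 0.70 and Gfra2 0.70) and Prkci (Hmga2 0.76, Krt12 0.74 and Ube2l6 0.72) they were of the size seen for Prkce. All these matches were picked as the highest among 11234 genes. How high a best rho runs among unrelated genes was not measured, so no shared role is read from these matches. Among the PKC genes themselves the highest rho was that of Prkca with Prkce (0.56) and the lowest that of Prkcb with Prkcq (-0.60).

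Genes that act upstream of, beside and downstream of PKC were counted in the same way. The 6 lists held 57 listed genes (Gq proteins and phospholipase C, diacylglycerol kinases, other diacylglycerol effectors, PKC priming and dephosphorylation, anchors and scaffolds, and substrates), of which 54 were tested in each hippocampal comparison and 55 in the nuclei. Called genes numbered 1 in Hdac1 cKO, 0 in 5XFAD and 2 in compound against control, 1 in compound against 5XFAD, 2 in compound against Hdac1 cKO, 2 in the nuclei and 2 for the interaction, and none had an adjusted p under 0.05 (limma). In the same order, 1.85%, 0%, 3.70%, 1.85%, 3.70%, 3.64% and 3.70% of the tested list members were called, beside 3.36%, 2.95%, 4.24%, 1.28%, 3.55%, 2.58% and 4.07% of all genes. The median log2 fold change of the tested list members lay between -0.04 and 0.04 in all comparisons and the interaction. All priming, dephosphorylation, anchor and scaffold genes stayed uncalled in each fit.

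Plcb4, a phospholipase C that yields diacylglycerol, was lower in Hdac1 cKO mice, going from 8.47 ± 3.05 to 4.29 ± 0.682 FPKM (log2 fold change -0.79 ± 0.21, adjusted p = 0.171, limma) and in compound mice to 4.76 ± 0.781 FPKM (-0.66 ± 0.22, adjusted p = 0.258, limma). Its control values ran from 4.75 to 11.2 FPKM. In the same comparisons 2 of 7 tested thalamic markers were called lower in each, as were 9 of 9 choroid plexus markers in Hdac1 cKO and 6 of 9 in compound mice, and their part in the Plcb4 values was not tested. Rasgrp3, a diacylglycerol-bound Ras activator, rose in compound mice to 6.90 ± 1.45 FPKM from 3.97 ± 0.921 in control (0.67 ± 0.18, adjusted p = 0.179) and 3.99 ± 0.684 in Hdac1 cKO mice (0.65 ± 0.16, adjusted p = 0.0623, limma). It was 5.58 ± 0.540 FPKM in 5XFAD mice. In both comparisons 6 of 8 microglia markers were called higher in compound mice, and their part in the Rasgrp3 values was not tested. Dgkh, a diacylglycerol kinase that removes the PKC activator, was lower in compound mice at 3.76 ± 1.32 FPKM than in 5XFAD (6.85 ± 1.92, -0.73 ± 0.19, adjusted p = 0.613) and Hdac1 cKO mice (6.86 ± 1.49, -0.74 ± 0.19, adjusted p = 0.0878, limma). Against 5XFAD mice 1 of 7 astrocyte and 1 of 2 tested T cell markers were called higher. Against Hdac1 cKO mice these were 2 of 7 and 1 of 2, with 6 of 8 microglia and 1 of 7 oligodendrocyte markers. Their part in the Dgkh values was not tested. Dgkh (-0.99 ± 0.26) and Gna11 (-0.61 ± 0.14), a G protein subunit upstream of phospholipase C, had negative interaction terms that were called (adjusted p = 0.297 for both, limma). In GFAP+ nuclei Unc13c, a diacylglycerol-binding priming factor of synaptic vesicles, rose from 4.33 ± 0.775 to 8.19 ± 1.91 FPKM (0.77 ± 0.23) and the PKC substrate Ppp1r14a, an inhibitor of myosin phosphatase, fell from 50.4 ± 16.9 to 30.8 ± 9.86 FPKM (-0.68 ± 0.28, adjusted p = 0.984 for both, limma). The choroid plexus, thalamic and endothelial markers that were called in the same nuclei are given above, the median log2 fold change of the 7 oligodendrocyte markers was -0.28 with none called, and their part in these values was not tested.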

How the data were processed

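RNA-seq was analysed in 27 of 34 listed samples. The authors deposited FPKM values, 1 per gene, computed per the labels' processing notes with TopHat and Cufflinks 2.0.0 on mm9. For the 3′ libraries, FPKM divides by a transcript length that the fragments do not cover, so levels were also compared after multiplying by the longest coding transcript of GENCODE M1, which is not the UCSC annotation the authors used and so undoes their division only in part. The 8 genes, the marker lists and the pathway lists were chosen with earlier results of these data known.

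Genes averaging 0.5 FPKM or more over the groups compared were tested on log2(FPKM + 1) with limma 3.58.1 (trend, robust) in R 4.3.3, without covariates. A gene was called at a 1.5-fold difference or more together with an unadjusted p below 0.05. Adjusted p-values are Benjamini-Hochberg over all genes tested. On simulated data with 200 genes changed by 1.5 (log2), the fits called between 97.5% and 100% of them, with 124 to 191 false calls per hippocampal comparison, 299 for the interaction and 376 for the nuclei. That change is larger than any PKC difference in the main fits. The rates therefore do not say how often differences of the PKC size would be called. Single genes were compared by two-sided exact permutation tests (scipy 1.17.1). The named genes were the 8 PKC genes, Hdac1, Thy1 and Gfap, the pathway genes called with the largest fold changes (up to 3 rises and 3 falls per comparison), and the 3 genes with the highest Spearman rho to each PKC gene among genes averaging 2 FPKM or more. For Prkcz these genes are not reported here. Marker genes were named where they move with a result. The alternatives tried were quantile normalization, median scaling, a pseudocount of 0.1, a filter at 1 FPKM, no filter, limma without trend and robust, 1 fit of all 4 hippocampal groups, the ratio of mean FPKM, a replicate block and each library left out. Samples with the same number did not deviate together.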

Additional observations from a re-analysis of the deposited data

Results flagged for a closer look

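Of 40 combinations of a PKC gene and a group of 4 or more libraries, 6 had a library whose distance from its nearest neighbour was larger than Dixon's 95% limit, where chance gives about 1 in 20. These were the lowest Prkcb of the 5XFAD group (86.4 FPKM) and its highest Prkcd (28.5 FPKM), both in 5XFAD 6, the highest Prkcd (10.99 FPKM, Hdac1 cKO 4) and the highest Prkcq (3.02 FPKM, Hdac1 cKO 5) of the Hdac1 cKO group, the lowest Prkcd of the GFAP+ Hdac1 cKO nuclei (16.4 FPKM) and the highest Prkci of the 5XFAD group (4.34 FPKM). The interaction of Hdac1 loss and 5XFAD had an unadjusted p under 0.05 for 2 of 8 genes, beside 8.97% of all genes. These were Prkce (-0.29) and Prkcq (0.71), with adjusted p-values of 0.430 and 0.555 over all genes (limma). For Prkcq the unadjusted p was 0.0497 (limma), and it rose above 0.05 in several alternatives given below.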

How the results depend on the processing

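PKC genes called stayed 1 for Hdac1 cKO against control except with the term for Ttr above 1000 FPKM (0) and with libraries left out (0 to 2). For 5XFAD against control they rose from 0 to 1 with a pseudocount of 0.1, with the ratio of mean FPKM and without control 4 and 5XFAD 6, and lay between 0 and 1 with 1 library left out. For compound mice against control they were 1 with the Ttr term and 0 to 1 with a library left out, and against 5XFAD mice 0 with the Ttr term and 0 to 1 with a library left out. In GFAP+ nuclei the count was 0 to 1 with a library left out. The interaction call of Prkcq was lost (0 called) with a pseudocount of 0.1, no filter, quantile normalization, limma without trend and robust, the replicate block and without control 4 and 5XFAD 6, and in 0 to 1 genes with a library left out. In the order of the named alternatives the interaction was 0.97, 0.71, 0.68, 0.71, 0.80 and 0.54, beside 0.71 in the main fit. Its unadjusted p lay between 0.05001 and 0.121 in them, beside 0.0497 (limma). All genes called numbered 641 (pseudocount of 0.1) and 688 (ratio of mean FPKM) in place of 425 for 5XFAD against control, and 325 and 341 in place of 184 for compound against 5XFAD. Prkcb held 32.1% of control hippocampus after multiplying by a transcript length that differs from the one the authors used. No PKC gene had an adjusted p under 0.05 in any alternative, although the count over all genes ran from 0 to 290 for Hdac1 cKO against control. That count ran from 48 to 129 for 5XFAD and from 34 to 220 for compound mice against control. It ran from 1 to 4 for compound against 5XFAD and from 148 to 261 for compound against Hdac1 cKO mice. In the GFAP+ nuclei it was 2 to 9, and for the interaction 0 to 1. Sample numbers did not pair the samples (correlations of deviations between -0.113 and 0.0778), and the replicate block (Prkcq interaction 0.80, adjusted p = 0.599, limma) changed no other PKC call. Of 56 log2 fold changes, the 22 with an unadjusted p under 0.2 kept their direction in every alternative, and of the other 34, 20 changed sign in at least 1.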
